A study of Mus musculus with 24 samples.

Results

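The BCL2 family was followed in thymocytes of irradiated mice through 10 of the 21154 named genes on the array. They were chosen by name, as survival proteins (Bcl2, Bcl2l1, Mcl1, Bcl2a1d), BH3-only proteins (Bcl2l11, Bad, Bik, Bmf) and effectors (Bak1, Bok), and all 10 were found, with 14 of the 55681 probes. Thymocytes were strained from the thymus of wild-type male and female C57BL/6J mice, 4 to 5 weeks old according to the methods, with 3 mice in each of 8 groups (4 treatments in each sex). Control mice were not irradiated, low dose mice received 0.075 Gy of X-rays, high dose mice received 1.75 Gy of γ-rays, and RAR (radio-adaptive response) mice received the low dose 6 h before the high dose. The time from the last exposure to collection of the thymus was found in neither the labels nor the methods. It is therefore not known whether that time was the same in all irradiated groups. RNA of each mouse was labeled with Cy5 and hybridized to 1 of 24 arrays against a common mouse reference RNA labeled with Cy3, with no dye swap, and every level below is a log2 Cy5/Cy3 ratio. The thymocyte RNA is that of all cells that passed the strainer, so fewer cells of a type and less RNA per cell cannot be told apart.

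Proteins of the BCL2 family decide whether the outer membrane of the mitochondrion is opened, the step that releases cytochrome c and starts caspase activation. Survival proteins hold the effectors BAK and BAX in check, and BH3-only proteins bind the survival proteins, or the effectors directly, and so favor death. Immature thymocytes are known for their sensitivity to loss of survival signals and to radiation, and MCL1, BCL2L1 and BIM (the product of Bcl2l11) are known to set their lifespan.

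The upstream sequences of the 3 genes whose main probe was past the threshold are shown here because the RNAs of these genes moved in different directions. They are the 250 bases before a RefSeq start site (build GRCm38.p6), read 5′ to 3′ on the gene's strand, with each CG pair in capitals. The Bcl2a1d window is chr9:88731851-88732100 (minus strand), that of Mcl1 is chr3:95658471-95658720 (plus strand), and that of Bmf, which has 3 start sites in the table, is chr2:118549687-118549936 (minus strand), the farthest upstream of them.
Bcl2a1d: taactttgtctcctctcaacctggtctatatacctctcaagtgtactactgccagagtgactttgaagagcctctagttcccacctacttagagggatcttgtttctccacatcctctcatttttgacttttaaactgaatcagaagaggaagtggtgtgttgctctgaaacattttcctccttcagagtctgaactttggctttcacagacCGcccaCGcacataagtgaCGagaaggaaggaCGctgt
Mcl1: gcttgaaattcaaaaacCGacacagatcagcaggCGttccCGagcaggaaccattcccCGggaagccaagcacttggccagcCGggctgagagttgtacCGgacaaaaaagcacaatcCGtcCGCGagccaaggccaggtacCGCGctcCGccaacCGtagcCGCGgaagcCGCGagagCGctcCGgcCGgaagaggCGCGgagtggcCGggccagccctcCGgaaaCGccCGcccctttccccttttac
Bmf: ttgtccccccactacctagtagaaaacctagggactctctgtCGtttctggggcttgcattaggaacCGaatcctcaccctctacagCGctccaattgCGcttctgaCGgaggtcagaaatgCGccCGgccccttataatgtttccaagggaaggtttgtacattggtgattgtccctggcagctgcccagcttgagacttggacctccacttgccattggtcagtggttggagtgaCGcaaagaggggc

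The Mcl1 window holds 26 CG pairs, the Bmf window shown 8 and the Bcl2a1d window 4, where the median of all 32851 windows is 6. The remaining Bmf windows hold 3 and 5, so the side of the median depends on the Bmf start site taken. Both strands of the 250 bases were searched for GTAAACA (a FOXO motif), TGACGTCA (CRE), TGANTCA (AP-1, N being any base) and CACGTG (E-box). Of the 10 genes, 9 are in the RefSeq table, with 15 windows. The AP-1 letters occur in the Bcl2a1d window, as TGAATCA starting 114 bases before the start site, and in 6.75% of all windows. The FOXO letters occur in 1 of the 2 Bcl2l11 windows, starting 227 bases before the start site, and in 3.17% of all windows. CRE letters (1.55% of all windows) and E-box letters (6.02%) were found in 0 of the 15 windows. The 2 matches do not overlap another of these motifs, and a match says only that the letters are there.

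Each gene was read by its probe with the highest mean Cy5 signal, and a difference between groups was counted at a Benjamini-Hochberg adjusted p under 0.05 in limma over all probes together with a change of at least 1.5-fold. After the low dose in females 1 of the 10 genes rose (Mcl1) and 1 fell (Bmf), beside 4.76% of all probes called higher and 4% called lower. After the high dose in females the same 2 genes were called, in the same directions, beside 4.23% higher and 3.65% lower. In female RAR, Mcl1 and Bcl2a1d rose and Bmf fell relative to control, beside 9.64% higher and 10.8% lower. In males 0 of 10 genes were called after the low dose, beside 3.21% of all probes higher and 3.44% lower. There 5 of the 10 had an unadjusted p under 0.05, as did 12996 of the 55681 probes. Bcl2a1d rose and Bmf fell in males after the high dose (5.2% higher and 5.38% lower over all probes) and in RAR (11.2% and 13.4%). With the adaptive regimen set against the high dose alone, Bcl2a1d rose in females (4% higher and 3.3% lower over all probes) and in males (3.1% and 2.79%). Against the low dose alone, 0 genes were called in females (2.28% higher and 1.86% lower over all probes). There 3 of the 10 had an unadjusted p under 0.05, as did 11486 of the 55681 probes. In males Bcl2a1d rose and Bmf fell against the low dose (4.98% and 4.8%). These counts of 0 to 3 of 10 genes give no picture of the family as a group, and the median log2 difference of the 10 genes lay between -0.27 and 0.19 in these comparisons, beside -0.05 to 0.0012 for all probes.

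**Figure D1:**
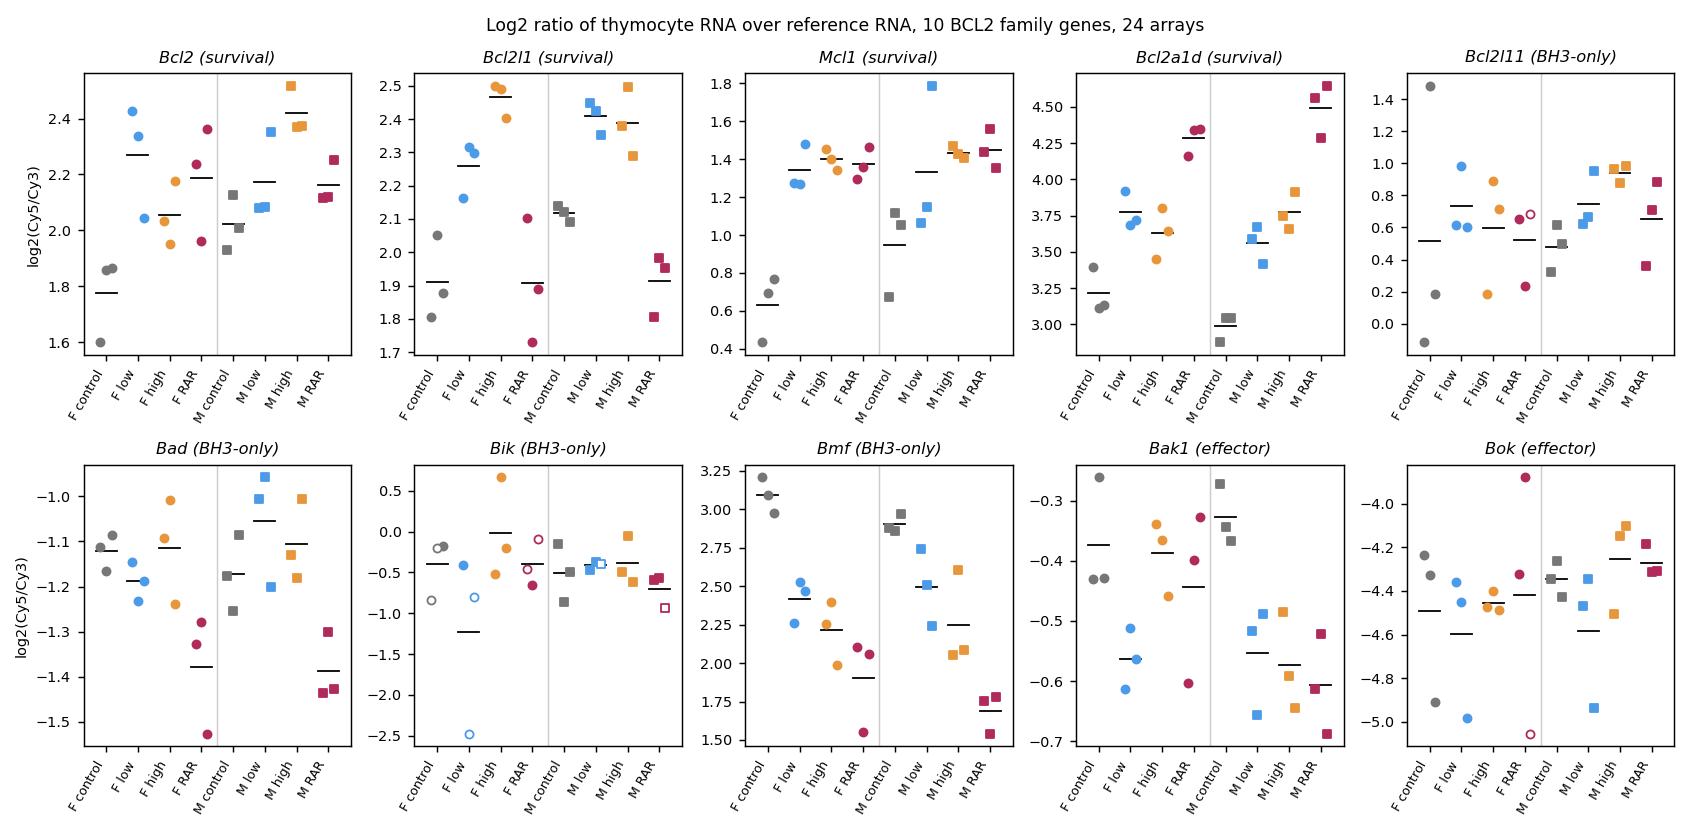
Each panel gives 1 gene, with the log2 Cy5/Cy3 ratio of its main probe on each of the 24 arrays (circles female, squares male, open where the spot was not well above background in Cy5) and a line at the mean of the 3 arrays of a group; the vertical scale differs between panels. By group mean Bcl2a1d is highest and Bmf lowest in the RAR groups of both sexes, while the 3 control arrays of females are below every irradiated female array for Mcl1.

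Among the survival genes, Bcl2a1d had the widest spread of group means, 1.51 on the log2 scale. It encodes A1, a short-lived protein that binds BH3-only proteins and is typical of leukocytes. Its log2 ratio was 3.40, 3.11 and 3.13 in control females, 3.92, 3.69 and 3.72 after the low dose, 3.45, 3.80 and 3.64 after the high dose and 4.16, 4.34 and 4.35 in RAR. In males it was 2.88, 3.05 and 3.04 in control, 3.59, 3.67 and 3.42 after the low dose, 3.75, 3.66 and 3.92 after the high dose and 4.56, 4.28 and 4.64 in RAR. Every irradiated array was above all controls of its sex, every RAR array was above all arrays of either single dose of its sex, and the female and male RAR arrays overlapped. In order of the group means, male control came first and female control next, without overlap. The 4 single-dose groups followed in the order male low, female high, male high and female low, each overlapping its neighbor, and female RAR and male RAR came last, overlapping each other.

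Relative to control, Bcl2a1d in RAR was 2.10-fold higher in females (log2 difference 1.07 ± 0.13 SE, adjusted p = 4.09e-06) and 2.84-fold higher in males (1.51 ± 0.13, adjusted p = 6.18e-08). Relative to the high dose alone it was 1.57-fold higher in females (adjusted p = 0.00334) and 1.65-fold higher in males (adjusted p = 0.00128). The male difference from the high dose was not called under quantile normalization (log2 difference 0.51, adjusted p = 0.084). The female one was not called without female high replicate 1. Of the 4 single-dose groups the male high dose group passed both limits against control (1.72-fold, adjusted p = 0.000265). After the low dose the log2 difference was 0.56 in females (adjusted p = 0.00482) and 0.57 in males (adjusted p = 0.00619), and after the high dose in females 0.42 (adjusted p = 0.0341), each under 1.5-fold. Mice carry near-identical Bcl2a1 copies, and Bcl2a1a and Bcl2a1b had no named probe here, so the probe may also read RNA of those copies.

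Genes of myeloid cells moved with Bcl2a1d. The mean log2 ratio of 12 myeloid genes, among them Lyz2, Csf1r and Itgam, was -0.59 to -0.33 on the control arrays of females, 0.42 to 0.72 after the low dose, 0.57 to 0.80 after the high dose and 1.57 to 2.10 in RAR. In males it was -0.70 to -0.59 in control, 0.59 to 0.64 after the low dose, 0.87 to 1.20 after the high dose and 1.77 to 2.23 in RAR. Of the 12 genes, 11 were called higher and 0 lower in female RAR against control, 12 and 0 in male RAR against control, 11 and 0 in female RAR against the high dose, and 8 and 0 in male RAR against the high dose. In the same order, 9.64%, 11.2%, 4% and 3.1% of all probes were called higher. All 12 were well above background on all 24 arrays, 0 of them were undetected, and their part in the Bcl2a1d difference was not tested. The 3 genes whose log2 ratio was most like that of Bcl2a1d over the 24 arrays, of 9958 genes searched, were Csf2ra (Pearson's r = 0.967), a receptor subunit of GM-CSF, Gpr137b-ps (0.966) and Lgals3 (0.963), the gene of galectin-3. The arrays are those of the 8 groups, so these values describe the shared group pattern.

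**Figure D2:**
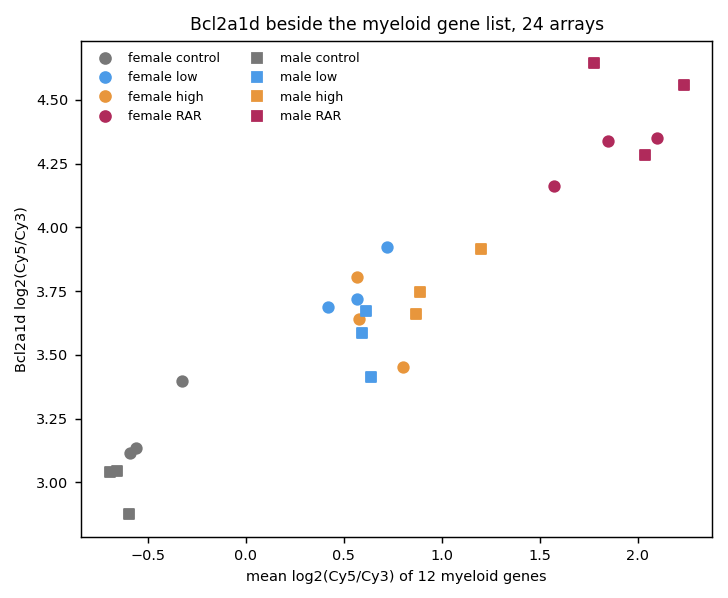
Each point is 1 array, with the mean log2 Cy5/Cy3 ratio of 12 myeloid genes on the horizontal axis and the log2 ratio of Bcl2a1d on the vertical axis (circles female, squares male, color by treatment). The control arrays lie at the lower left, from -0.70 to -0.33 on the horizontal axis, and the RAR arrays at the upper right, from 1.57 to 2.23.

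Mcl1, a survival gene whose protein turns over fast, was called higher after irradiation in females, and its male differences from control were also positive. In the F-test of the interaction of sex and treatment the adjusted p of Mcl1 was 0.891. Its log2 ratio was 0.43, 0.69 and 0.77 in control females, 1.27, 1.27 and 1.48 after the low dose, 1.46, 1.40 and 1.34 after the high dose and 1.30, 1.36 and 1.46 in RAR. In males it was 0.67, 1.12 and 1.05 in control, 1.06, 1.15 and 1.79 after the low dose, 1.47, 1.43 and 1.40 after the high dose and 1.44, 1.56 and 1.35 in RAR. The irradiated groups of females lay above control without overlap and overlapped each other, while male low dose arrays overlapped control.

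In females Mcl1 was 1.64-fold higher after the low dose (log2 difference 0.71 ± 0.16 SE, adjusted p = 0.00447), 1.70-fold after the high dose (adjusted p = 0.0028) and 1.67-fold in RAR (adjusted p = 0.00133). In males the log2 difference was 0.38 after the low dose (adjusted p = 0.138), 0.49 after the high dose (adjusted p = 0.041) and 0.50 in RAR (adjusted p = 0.0194), under 1.5-fold throughout. Arrays with the same scan time in the file header were taken as 1 slide. Slide 2 held only control and low dose arrays and slide 3 only high dose and RAR arrays, so slide and treatment cannot be fully told apart. For every gene, female control arrays shared no slide with female high dose or RAR arrays. With this slide as a block the male differences were 0.69 after the high dose (adjusted p = 0.0159) and 0.71 in RAR (adjusted p = 0.00947), past both limits. RAR differed from the high dose by -0.03 in females (adjusted p = 0.951) and 0.02 in males (adjusted p = 0.969). The second Mcl1 probe moved in the same directions by less, with log2 differences from control of 0.27 to 0.40 over the 6 irradiated groups, and was past 1.5-fold in 0 of them. With the Cy5 channel alone the 3 female differences were 0.51, 0.53 and 0.44 and under 1.5-fold. Enc1 (r = 0.925), Acrbp (0.923) and Nfkbiz (0.911) had the most similar log2 ratios over the 24 arrays.

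Bcl2l1 encodes BCL-XL, the survival protein of double-positive thymocytes, and its brighter probe followed another course. The log2 ratio was 1.81, 2.05 and 1.88 in control females, 2.16, 2.32 and 2.30 after the low dose, 2.50, 2.49 and 2.40 after the high dose and 2.10, 1.73 and 1.89 in RAR. In males it was 2.14, 2.12 and 2.09 in control, 2.45, 2.42 and 2.35 after the low dose, 2.38, 2.50 and 2.29 after the high dose and 1.81, 1.98 and 1.95 in RAR. Single-dose arrays were above the controls of their sex, and RAR arrays were below both single doses in both sexes.

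Relative to the high dose alone, RAR was lower by a log2 difference of -0.56 ± 0.10 in females (adjusted p = 0.00195) and -0.47 ± 0.10 in males (adjusted p = 0.00535), and relative to the low dose by -0.35 in females (adjusted p = 0.0412) and -0.49 in males (adjusted p = 0.00201). Relative to control, the difference was 0.55 after the high dose in females (adjusted p = 0.000992) and 0.35 after the low dose (adjusted p = 0.0242). All these values are under 1.5-fold. With the scaled Cy5 channel alone the single-dose differences from control were smaller: 0.23 after the high dose in females (adjusted p = 0.253) and 0.15 after the low dose in males (adjusted p = 0.484). The female low dose difference turned to -0.01 (adjusted p = 0.992) and the male high dose difference, 0.27 in the ratio, to -0.06 (adjusted p = 0.871). The lower RAR level against both single doses was also seen there.

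The second Bcl2l1 probe, annotated to another transcript of the gene, was lower in RAR than in every other group. Its log2 ratio was 2.22, 2.09 and 1.96 in control females, 2.15, 2.15 and 2.20 after the high dose and 1.53, 1.16 and 1.66 in RAR, and in males 2.20, 2.01 and 1.92 in control, 2.14, 1.88 and 1.76 after the high dose and 1.42, 1.52 and 0.95 in RAR. It fell by 0.64 on the log2 scale in female RAR against control (adjusted p = 0.00693) and by 0.75 in male RAR (adjusted p = 0.00177). Against the high dose alone it fell by 0.72 in females (adjusted p = 0.00994) and by 0.63 in males (adjusted p = 0.0222). Thus the 2 probes shared the lower level in RAR than after either single dose and disagreed on the single doses, where the second probe differed from control by -0.12 to 0.09 in the 4 groups with adjusted p from 0.728 to 0.979. In RAR against the high dose, the fall of the second probe was not called in females without female RAR replicate 2, or in males without male high replicate 1, male high replicate 2 or male RAR replicate 3, under quantile normalization (adjusted p = 0.125) or with normexp and loess (-0.44, under 1.5-fold). Its falls in RAR against control were not called with the slide as a block (adjusted p = 0.228 in females and 0.0513 in males). The female one was not called without female RAR replicate 2 or without female control replicate 1, and the male one without male RAR replicate 3 or with normexp and loess (-0.42, under 1.5-fold).

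**Figure D3:**
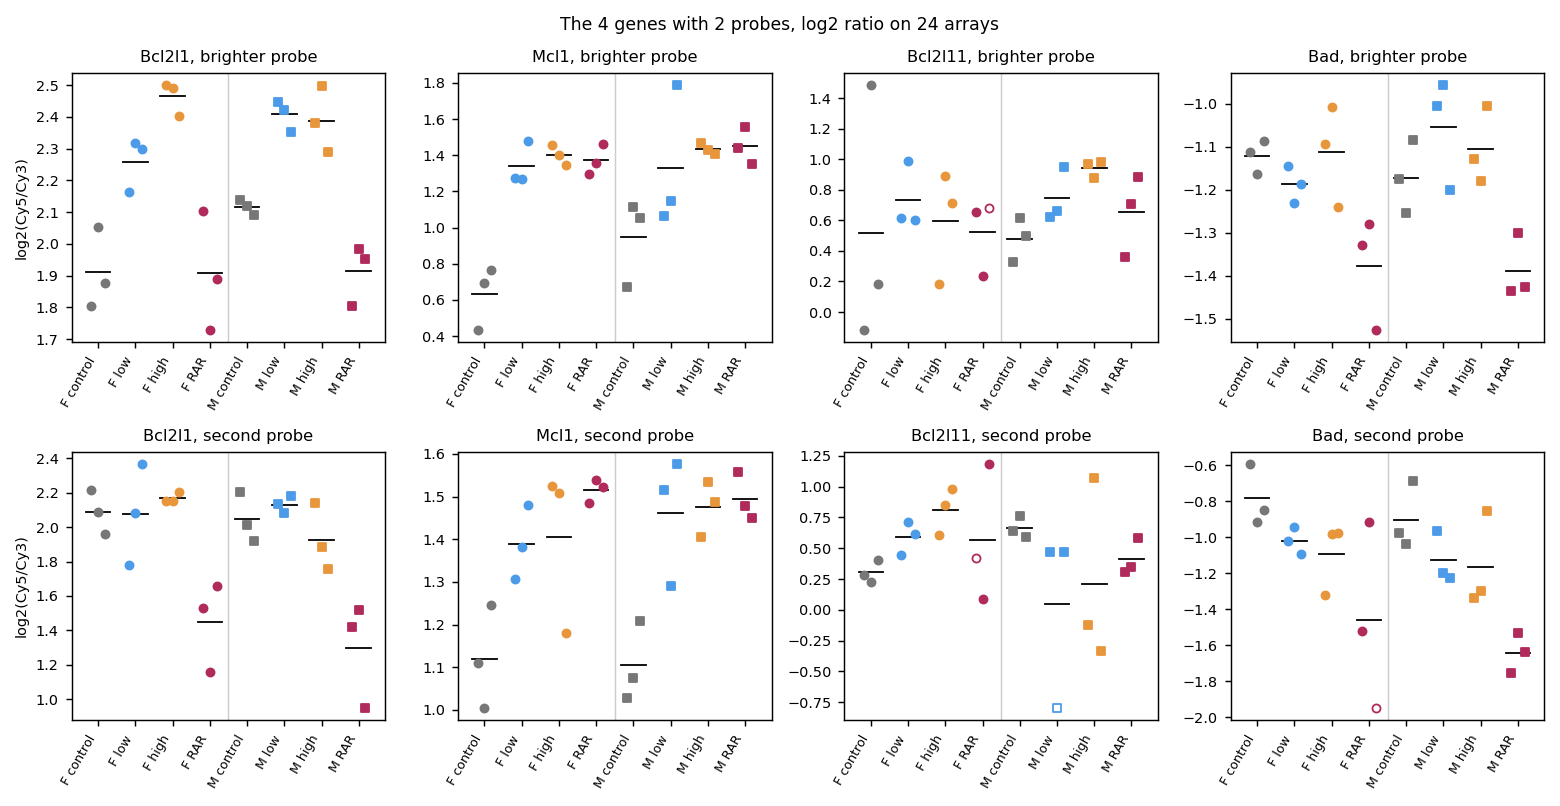
For the 4 genes with 2 probes, the upper panel gives the brighter probe and the lower panel the second, with the log2 Cy5/Cy3 ratio of each of the 24 arrays (circles female, squares male, open where not well above background) and a line at each group mean; the vertical scale differs between panels. Both Bcl2l1 probes are lower in RAR than after either single dose, and the 2 Bcl2l11 probes share no pattern (r = -0.0182 over the arrays).

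Bcl2, the founding survival gene, is low in double-positive thymocytes and high in mature T cells. Its log2 ratio in control females was 1.60, 1.86 and 1.87, below all irradiated female arrays, which lay between 1.95 and 2.43. Against control the log2 difference was 0.49 after the low dose (adjusted p = 0.012) and 0.41 in RAR (adjusted p = 0.0195) in females, and 0.40 after the high dose in males (adjusted p = 0.038), each under 1.5-fold. It was 0.28 after the high dose in females (adjusted p = 0.18). In males it was 0.15 after the low dose (adjusted p = 0.561) and 0.14 in RAR (adjusted p = 0.47), where the arrays overlapped control. Markers of mature T cells rose in RAR in both sexes, while Bcl2 in male RAR overlapped control. Of 8 markers, 5 were called higher and 0 lower in female RAR against control (9.64% and 10.8% of all probes). In male RAR 6 were called higher and 0 lower (11.2% and 13.4%). Their mean log2 ratio was 4.02 to 4.14 on control arrays and 4.65 to 4.83 on RAR arrays of females. In males it was 3.79 to 4.05 and 4.82 to 4.97. All 8 were well above background on all arrays, and their part in the Bcl2 levels was not tested. Clk1 (r = 0.805), Mss51 (0.801) and Lmbr1l (0.788) were most like Bcl2 over the 24 arrays.

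Of the BH3-only genes, Bmf alone was called by its main probe. Bmf encodes a sensor that binds the survival proteins and is held by the dynein light chain Dynll2. Its log2 ratio was 3.21, 3.10 and 2.98 in control females, 2.26, 2.52 and 2.47 after the low dose, 2.26, 2.40 and 1.99 after the high dose and 2.10, 1.55 and 2.06 in RAR. In males it was 2.88, 2.86 and 2.97 in control, 2.74, 2.51 and 2.24 after the low dose, 2.05, 2.60 and 2.09 after the high dose and 1.75, 1.54 and 1.78 in RAR. All irradiated arrays were below the controls of their sex, and the male RAR arrays were below every other male array.

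In RAR, Bmf fell by 1.19 ± 0.17 SE on the log2 scale in females, to 0.438 of the control level (adjusted p = 3.5e-05), and by 1.21 ± 0.17 in males, to 0.432 of it (adjusted p = 2.19e-05). It fell by 0.68 after the low dose (adjusted p = 0.0115) and by 0.88 after the high dose (adjusted p = 0.00195) in females, and by 0.65 after the high dose in males (adjusted p = 0.0128), where the low dose difference was -0.41 (adjusted p = 0.156). Relative to the low dose it fell by 0.81 in male RAR (adjusted p = 0.00313), and in female RAR the difference was -0.51 (adjusted p = 0.0854). Relative to the high dose alone the difference was -0.31 in females (adjusted p = 0.283) and -0.56 in males (adjusted p = 0.0477, under 1.5-fold).

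The RAR falls of Bmf against control stayed past the threshold with the slide as a block (-1.02, adjusted p = 0.0103 in females and -1.05, adjusted p = 0.0024 in males). The single-dose falls did not: with the block the difference was -0.66 after the low dose in females (adjusted p = 0.0509), -0.64 after the high dose in females (adjusted p = 0.278) and -0.56 after the high dose in males (adjusted p = 0.106). The fall in male RAR against the low dose was not called with the block either (-0.65, adjusted p = 0.0973). Control arrays of females shared no slide with those of the high dose or of RAR, so both differences under the block rest on the other groups and are not within-slide values. On the 1 slide that held both groups, the male RAR array was lower than the male control array by a log2 difference of -1.13. The male high dose call was lost without male high replicate 1 or 3, and the female low dose call without female low replicate 1. The mean log2 ratio of 11 epithelial genes was lower in RAR than in control without overlap in females and with overlap in males. It was 0.47 to 0.79 in control and -0.33 to 0.10 in RAR in females, and 0.25 to 0.69 and 0.08 to 0.36 in males. Female arrays lay between -0.30 and 0.31 after the low dose and between -0.30 and 0.0035 after the high dose, overlapping RAR. Male low dose arrays, between -0.42 and -0.07, lay below all male RAR arrays. Male high dose arrays reached from -0.56 up to 0.10 and overlapped RAR. The male epithelial mean was therefore not lowest in RAR, whereas male Bmf was. Of the 11, 2 were called higher and 4 lower in female RAR against control (9.64% and 10.8% of all probes). In male RAR 3 were called higher and 3 lower (11.2% and 13.4%). Foxn1 and Psmb11, which define thymic epithelium, were well above background on 6 and 8 of the 24 arrays. The part of the epithelial genes in the Bmf difference was not tested.

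Dnajc24 and Pomgnt1 (r = 0.939 each) and Tmem263 (0.936) were most like Bmf over the 24 arrays. Bad encodes a BH3-only protein that growth factor kinases inactivate. Its brighter probe lay between -1.26 and -1.09 in control and between -1.53 and -1.28 in RAR over both sexes, without overlap. The log2 difference of RAR from control was -0.26 ± 0.09 in females (adjusted p = 0.052) and -0.22 ± 0.09 in males (adjusted p = 0.0971), and that of male RAR from the low dose -0.33 (adjusted p = 0.0208), under 1.5-fold. The second Bad probe gave -0.59, -0.91 and -0.85 in control females, -1.52, -0.92 and -1.95 in female RAR, -0.98, -1.04 and -0.69 in control males and -1.75, -1.53 and -1.64 in male RAR. By this probe Bad fell by 0.68 in female RAR (adjusted p = 0.0154) and by 0.74 in male RAR (adjusted p = 0.00749). The directions of both probes were the same for RAR, but neither fall of the second probe was called under quantile normalization (adjusted p = 0.0861 and 0.205) or with normexp background correction and loess, where the differences were -0.29 and -0.32, and the female fall was not called with the slide as a block (adjusted p = 0.0909), without female RAR replicate 3 or without female control replicate 1.

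Bcl2l11, the gene of BIM and the best known BH3-only gene of thymocyte deletion, gave log2 ratios from -0.12 to 1.48 by its brighter probe, and both of these extremes were control arrays of females. The log2 difference from control was between 0.01 and 0.46 in the 6 irradiated groups, with adjusted p from 0.341 to 0.992. Its second probe gave 0.29, 0.51 and 0.26 in the female groups and -0.61, -0.45 and -0.25 in the male groups, with adjusted p from 0.313 to 0.735, so these arrays give no direction for Bcl2l11. Bik, a BH3-only gene whose product sits on the endoplasmic reticulum, was well above background on 16 of 24 arrays, and its differences from control ran from -0.83 to 0.39 with an SE of 0.40 and adjusted p of at least 0.21.

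Both effector genes of the list moved little. Bak1 encodes BAK, which forms the pore in the outer membrane, and its log2 ratio was -0.27, -0.34 and -0.37 in control males and -0.61, -0.52 and -0.69 in male RAR, without overlap (log2 difference -0.28 ± 0.09, adjusted p = 0.0234, under 1.5-fold). In females the RAR difference was -0.07 (adjusted p = 0.655). Bok, a BAK relative, gave log2 ratios from -5.05 to -3.88, that is, far less RNA in thymocytes than in the reference pool, and its differences from control ran from -0.24 to 0.09 with adjusted p from 0.656 to 0.974.

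**Figure D4:**
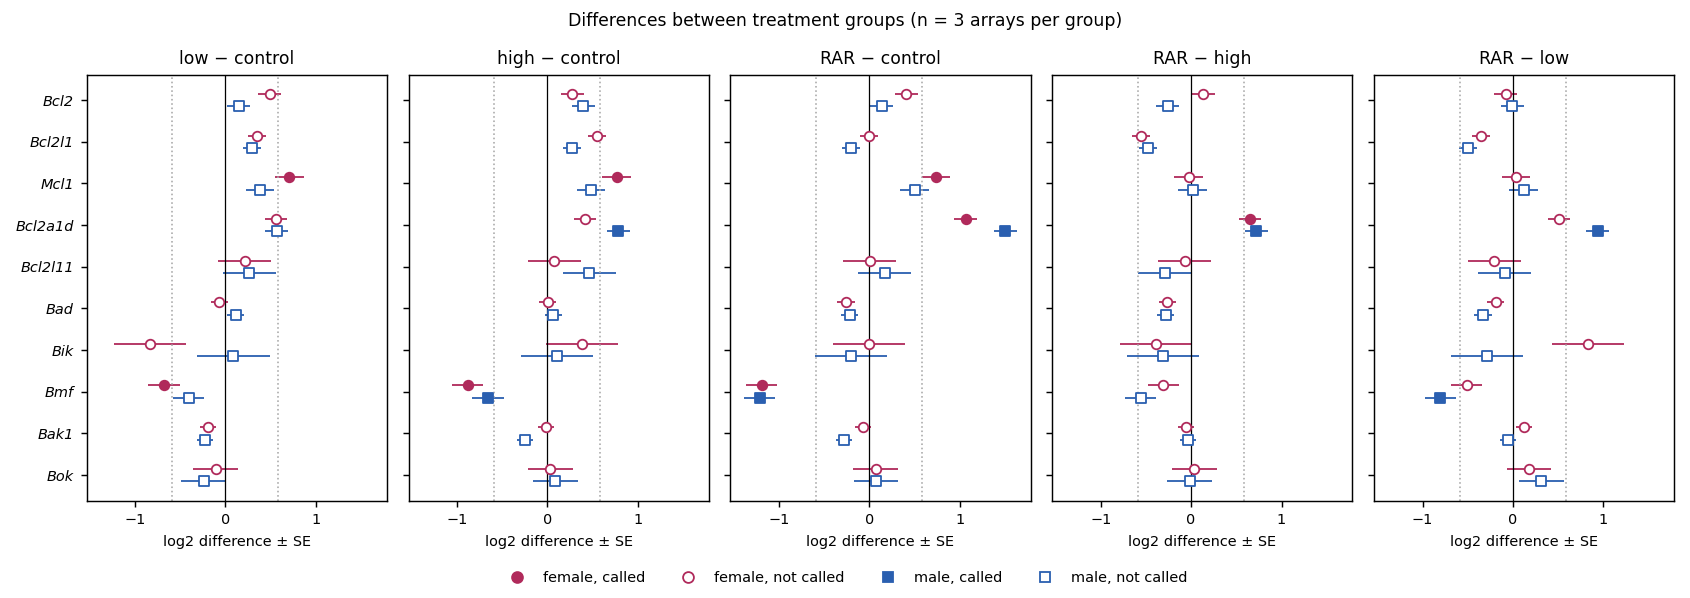
Each panel gives 1 comparison, with the log2 difference of each gene's main probe and its SE from limma (circles female, squares male, filled where called, n = 3 arrays per group); the dotted lines mark 1.5-fold. Bcl2a1d lies to the right and Bmf to the left of 0 in all 3 comparisons with control, and Bcl2l1 lies to the left in both comparisons of RAR with a single dose.

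None of the 10 genes was called in a contrast between the sexes by limma. Male and female RAR differed in 0 genes at the threshold, beside 0.438% of all probes called. At an unadjusted p under 0.05 they also differed in 0 of the 10 genes, beside 6591 of the 55681 probes. The log2 difference between male and female RAR was 0.21 ± 0.13 for Bcl2a1d (adjusted p = 0.522) and -0.21 ± 0.17 for Bmf (adjusted p = 0.652). The male minus female difference in RAR was also set against the same difference in control, after the high dose and after the low dose. In each, 0 genes were called, beside 0%, 0.00359% and 0% of all probes. At an unadjusted p under 0.05 there was 1 of the 10 genes in each, beside 4255, 2650 and 3949 of the 55681 probes. In the F-test of the interaction of sex and treatment, which called 0.00359% of all probes, the adjusted p of the 10 genes was at least 0.759, the value of Bcl2a1d (unadjusted p = 0.0411). With the value farthest from each group's mean left out for every probe, an outlier step that the methods describe, 7 of the 10 genes passed the F-test, beside 60.3% of all probes. That step leaves 2 values per group and narrows their spread by construction. In the contrasts between the sexes the count stayed at 0 of 10 under it, beside 18.6% of all probes for male against female RAR. It was also 0 of 10 when that difference was set against control (21.3%), the high dose (18.8%) and the low dose (20.4%).

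Other members of the family were read from a list of 16 genes, of which 14 were measured. Bax (the effector next to BAK), Bbc3 (PUMA) and Pmaip1 (NOXA), all textbook targets of TRP53, rose in all 6 comparisons with control. Their changes were larger than those of the 10 genes: the log2 difference in RAR was 2.96 for Pmaip1, 2.60 for Bbc3 and 1.93 for Bax in females and 3.41, 2.66 and 2.40 in males. Bcl2l14 was called in male RAR (2.23 ± 0.60, adjusted p = 0.00684). In these comparisons 3 to 5 of the 14 genes rose and 1 to 3 fell, beside 3.21% to 11.2% of all probes higher and 3.44% to 13.4% lower. Bid, a BH3-only gene named after its values were seen, fell in all 6. The list's median log2 difference was 0.06 in female RAR and 0.41 in male RAR, beside -0.04 and -0.02 for all probes. In RAR against the high dose alone, 0 of the 14 genes were called in either sex. Over all probes 4% were higher and 3.3% lower there in females, and 3.1% and 2.79% in males, so a count of 0 is near those shares.

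Of 19 genes that act downstream at the mitochondrion or in caspase activation, 0 rose and 6 fell in female RAR against control and 1 rose and 8 fell in male RAR. Over all probes 9.64% rose and 10.8% fell in female RAR, and 11.2% and 13.4% in male RAR. Endog, a mitochondrial nuclease, fell in all 6 comparisons with control, by 1.06 on the log2 scale in female RAR and by 1.01 in male RAR. Apaf1, the scaffold of the apoptosome, rose in 5 of the 6 and had a log2 difference of 0.36 in female RAR (adjusted p = 0.125). Dffa, the inhibitor of the caspase-activated nuclease, fell by 0.84 in female RAR and by 1.31 in male RAR. The median log2 difference of the 19 genes was -0.44 in female RAR and -0.53 in male RAR, beside -0.04 and -0.02 for all probes.

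Of 14 measured genes that regulate the 10 genes or their products, 3 rose and 2 fell in female RAR against control and 2 rose and 2 fell in male RAR. Over all probes 9.64% rose and 10.8% fell in female RAR, and 11.2% and 13.4% in male RAR, so the male counts were near those of all probes. The median difference was 0.0036 and -0.16, beside -0.04 and -0.02 for all probes. Myc fell in all 6 comparisons with control, by 1.41 after the low dose in females and by 1.66 in male RAR. Dynll1, the light chain known to hold BIM, fell by 1.13 in female RAR and 1.31 in male RAR. Foxo1, a transcription factor known to act on Bcl2l11, rose in RAR by a log2 difference of 0.98 in females and 0.72 in males. Pim1, a kinase known to phosphorylate BAD, rose in all 3 female groups and in males after the high dose, where the log2 difference was 0.77.

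The cell type was checked against 11 markers of double-positive thymocytes, which were well above background on all 24 arrays with a mean log2 ratio of 5.02 to 5.73. In female RAR against control 2 of them were called higher and 2 lower (9.64% and 10.8% of all probes), and in male RAR 4 and 0 (11.2% and 13.4%). Epithelial genes (3 higher and 3 lower of 11 in male RAR against control), B cell genes (1 and 4 of 8), stromal genes (2 and 1 of 10) and erythroid genes (0 and 0 of 7) showed no common direction in male RAR. The share of spots well above background in Cy5 was 49.3% to 62.84% on 22 arrays, 71.76% on female RAR replicate 2 and 34.7% on female RAR replicate 3. Without these 2 arrays, 1 female RAR array is left and the group has no spread of its own, so no calls are given. On that array, replicate 1, the log2 ratio was 4.16 for Bcl2a1d, 2.10 for Bmf and 1.30 for Mcl1. The female control means were 3.21, 3.09 and 0.63.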

How the data were processed

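Thymocyte RNA of 24 mice (3 per group, 8 groups) was measured on 2-colour Agilent arrays. The authors deposited scanner files with background-subtracted, dye-normalized processed intensity of both channels (Feature Extraction 11.5.1.1 per the file headers) and a table of log2 Cy5/Cy3 values, 100% of which were within 0.01 of the log2 ratio of those intensities. Control spots and the spots flagged as outliers (183 to 368 per array) were left out, spots of a probe were averaged, and no between-array scaling was applied. Probes were named through their accession in the RefSeq table (GRCm38.p6, names only). The number of arrays limits the precision.

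All 55681 probes were fitted with limma 3.58.1 (R 4.3.3) as 8 group means with 16 residual degrees of freedom; p-values were Benjamini-Hochberg adjusted over all probes, and calls needed 0.05 and 1.5-fold, as in the methods. An interaction F-test covered sex and treatment. Exact two-sided permutation tests of single genes cannot go below 0.1 with 3 against 3 arrays and were not used for calls. A gene was reported by its probe with the highest mean Cy5 signal, and its second probe was given where it differed in direction or call. Named genes were the 10 members, at most 4 genes of each related list with the largest mean change, and the 3 genes most correlated with each of the 4 members with the widest range of group means among those whose Cy5 signal cleared background on each of the 24 arrays, which leaves out Bik. Some genes that this rule names are not reported here. Promoters were searched in Python 3.11.15 with pandas 2.3.3, and plots used matplotlib 3.10.9. Members, lists and tests were chosen with earlier results of these data known. The script was tested on simulated data. Alternatives covered background correction, normalization, the Cy5 channel alone, the deposited table, dim probes, slide, replicate number, array weights, outlying values, thresholds, probe averaging and single arrays. The slide was inferred from a shared scan time in the file headers.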

Additional observations from a re-analysis of the deposited data

How the results depend on the processing

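The counts of called genes were recomputed under every alternative, and no called difference turned its direction. The share of all probes called was recomputed only without a fold limit and with each group's farthest value left out. The other counts in this section have no such share beside them, so whether they moved with the calls over all probes cannot be seen. Of 843 recomputed values of called differences, 769 stayed called and 74 did not. With a log2 change over 1.5 as the limit, 1 gene (Bcl2a1d) was called in male RAR against control and 0 in the other 9 comparisons within a sex. Without a fold limit, a choice made after seeing the data, the counts against control were 5 (female low, beside 14.6% of all probes), 4 (female high, 13.4%), 4 (female RAR, 28.1%), 1 (male low, 11.2%), 4 (male high, 16.9%) and 4 (male RAR, 32.1%). For RAR against the high dose they were 2 in females (11.8%) and 3 in males (10.2%), and against the low dose 2 (6.92%) and 4 (16.4%). With the slide as a block 1 gene was called for female low, female high, and male RAR against low, and 3 for male RAR against control, where Mcl1 was added. Leaving out the value farthest from each group's mean is the outlier step of the methods and narrows the spread by construction. It gave 1 for female low (24.6% of all probes), 5 for female high (26.3%), 2 for female RAR against high (25.7%) and 1 against low (21.5%). It also gave 1 for male low (24.8%) and 7 genes in the interaction of sex and treatment (60.3%). The mean of all probes of a gene gave 1 for female low, 1 for female high and 2 for female RAR against high. Normexp with loess gave 1 for female RAR against low, 1 for male low and 1 for male high. Quantile normalization gave 2 for female RAR against high. The Cy5 channel alone gave 2 for female RAR against high, 2 against low and 1 for male low; on that scale the median of all probes moved by 0.641 in female RAR and 0.328 in male RAR against control. Leaving out female RAR replicates 2 and 3 leaves 1 array in that group, so no count is given for it, though its values are among the 843.

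Leaving out single arrays gave 1 to 4 called genes for female low (1 without female low replicate 1 and 4 without replicate 3), 2 to 3 for female high, 3 to 3 for female RAR, 0 to 2 for female RAR against high and 0 to 0 against low. In males it gave 0 to 1 for low (1 without male control replicate 2 or 3 or male low replicate 3), 1 to 2 for high (1 without male high replicate 1 or 3), 2 to 3 for RAR, 1 to 2 for RAR against high (2 without male high replicate 1 or 3) and 2 to 2 against low. For female RAR against high the count was 0 without female high replicate 1 and 2 without female high replicate 3 or female RAR replicate 1. All contrasts between the sexes stayed at 0. The replicate numbers of the labels did not pair the samples: of 84 same-numbered pairs 4 had deviations correlated over 0.1 (range -0.164 to 0.222), and 6 of 24 arrays correlated best with their own number. The replicate block left the counts as they were, for example 3 genes in female RAR and 2 in male RAR against control. Array weights, the deposited table and the filter on dim probes also left every count as it was.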
